A study of Mus musculus with 8 samples.

Results

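The genes described here are 33 genes known as products of Sertoli cells, the somatic nurse cells of the seminiferous tubule. They were listed by name. Measured values entered the rule only where a gene had several probe sets, of which the brightest over the 8 arrays stood for it. Of the 33, 31 had a probe set with a single gene symbol on the array and 2, Rhox8 and Trf, did not, so these 2 are not analysed here. After a filter on mean intensity over all 8 arrays, at the 40th percentile (67.1), 28 of the 31 genes remained among 13795 genes tested. Amh, Gdnf and Il1a fell below the filter with means of 38.9, 40.7 and 12.1, and the dimmest kept members were Lrp2 and Mro at 88.3 and 99. Mro in wild type and Lrp2 in replicates 1 and 2 averaged below the filter value, at 62.8 and 59.3, so each was kept only through the mice in which it was higher. Of 8 defining markers of the cell type (Sox9, Wt1, Gata4, Amh, Fshr, Cldn11, Rhox5 and Dhh), 7 were above the filter and Amh was not.

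Total RNA from whole testes of 8 mice aged 27 days was hybridised to Affymetrix arrays, 1 array per mouse. The 4 control mice are titled wild type, but their genotype entry reads Brwd1+/-, and the 4 mutants are Brwd1-/-. No mouse was treated. Brwd1 encodes a bromodomain and WD repeat protein. The labels give neither strain nor the nature of the mutation, and whole testis holds germ cells, Sertoli cells and interstitial cells together. In such bulk RNA, fewer cells of a type and less RNA per cell cannot be told apart.

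Sertoli cells surround the germ cells from spermatogonium to spermatid, join to each other through the tight junctions of the blood-testis barrier, and feed and anchor the germ cells. They stop dividing in early postnatal life, after which germ cells multiply around a fixed number of them. The transcription factors SOX9, SOX8, GATA4, WT1 and DMRT1 set and keep their identity. Follicle-stimulating hormone, acting through its receptor FSHR, and testosterone from Leydig cells control what they secrete, including inhibin, clusterin and transferrin. Anti-Mullerian hormone, made by immature Sertoli cells, declines around puberty.

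Facts of the whole data set bear on every value below. Brwd1 was covered by 5 probe sets, and of the 4 above the filter none passed the test between genotypes without or with a block. Spermatid transcripts were lower in mutants, with 12 listed genes summing to between 82768 and 148121 intensity units in wild type and between 5043 and 31523 in mutants. Of these 12 genes 1 passed the test without a block, 10 with the replicate number as a block and 7 with the sets as a block, all lower. The arrays also split by replicate number. Markers of the epididymis, the duct attached to the testis, summed to between 219.6 and 380.2 in replicates 1 and 2 of both genotypes and to between 39747 and 48353 in replicates 3 and 4 (6 of 9 listed genes on the array, all 6 called higher in replicates 3 and 4). The labels name no batch. Replicates 1 and 2 of both genotypes are called set A here and replicates 3 and 4 set B, and each set holds 2 wild-type and 2 mutant mice. Genotypes were therefore compared over all 8 mice, with the replicate number or the set as a block, and within each set.

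Promoter sequence was at hand for 22 of the 33 genes (RefSeq, build GRCm38.p6, 25 promoters, the 250 bases before the annotated start). The 6 sequences below belong to the members on which the contrast with the most calls, between the sets, turns: endocrine genes lower in set B (Inha, Amhr2, Fshr and Dhh), Kitl, which was higher there, and Gja1, called higher there by its brightest probe set while other probe sets gave the opposite sign. Capitals mark any of 3 motifs on either strand, AGGTCA (the core site bound by nuclear receptors such as SF-1), GATAA (bound by GATA factors, TTATC when read from the other strand) and ACAAT (the core bound by SOX proteins). None of the marked motifs in these 6 overlap. The stretches lie at chr1:75507359-75507608, plus strand for Inha, chr15:102445117-102445366, plus strand for Amhr2, chr17:89200676-89200925, minus strand for Fshr, chr15:98898541-98898790, minus strand for Dhh, chr10:56377050-56377299, plus strand for Gja1 and chr10:100015571-100015820, plus strand for Kitl, and all are upstream of the annotated transcript.
Inha: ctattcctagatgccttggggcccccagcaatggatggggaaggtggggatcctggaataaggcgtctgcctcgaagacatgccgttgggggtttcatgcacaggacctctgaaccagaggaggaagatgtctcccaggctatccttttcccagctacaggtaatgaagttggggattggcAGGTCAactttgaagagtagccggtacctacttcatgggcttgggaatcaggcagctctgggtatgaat
Amhr2: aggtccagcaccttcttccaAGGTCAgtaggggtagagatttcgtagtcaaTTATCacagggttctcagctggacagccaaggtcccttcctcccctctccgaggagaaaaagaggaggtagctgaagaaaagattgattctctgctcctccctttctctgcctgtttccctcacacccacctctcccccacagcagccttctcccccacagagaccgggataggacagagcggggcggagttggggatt
Fshr: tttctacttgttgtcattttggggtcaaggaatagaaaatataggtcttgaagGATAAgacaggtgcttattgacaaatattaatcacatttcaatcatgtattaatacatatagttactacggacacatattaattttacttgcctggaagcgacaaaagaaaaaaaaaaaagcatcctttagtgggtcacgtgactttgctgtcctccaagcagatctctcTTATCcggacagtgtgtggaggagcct
Dhh: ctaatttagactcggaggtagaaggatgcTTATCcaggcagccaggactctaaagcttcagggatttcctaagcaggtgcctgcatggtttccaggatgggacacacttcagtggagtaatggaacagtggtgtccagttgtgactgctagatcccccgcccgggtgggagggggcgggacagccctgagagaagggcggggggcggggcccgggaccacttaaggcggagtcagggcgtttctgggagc
Gja1: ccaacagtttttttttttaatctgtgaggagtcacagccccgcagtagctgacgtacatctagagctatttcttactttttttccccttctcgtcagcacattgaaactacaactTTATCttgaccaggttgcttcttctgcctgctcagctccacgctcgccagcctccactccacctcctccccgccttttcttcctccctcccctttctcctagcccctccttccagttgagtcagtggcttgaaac
Kitl: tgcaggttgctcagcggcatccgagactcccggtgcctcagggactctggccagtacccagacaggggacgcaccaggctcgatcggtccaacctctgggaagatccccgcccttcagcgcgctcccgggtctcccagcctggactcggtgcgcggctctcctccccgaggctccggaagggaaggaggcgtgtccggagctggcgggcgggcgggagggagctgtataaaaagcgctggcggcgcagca
AGGTCA stood in the promoters of 3 of the 22 genes, Inha, Amhr2 and Gdnf, and in 14.0% of all 32851 promoters searched. GATAA stood in 8, Amhr2, Cst9, Dhh, Fshr, Gdnf, Gja1, Shbg and Tjp1, and in 22.6% of all. ACAAT stood in 4, Ctsl, Gdnf, Il1a and Rhox5, and in 27.7% of all. The Inha promoter held its AGGTCA 69 to 64 bases before the start, and the Fshr promoter held GATAA at both 197 to 193 and 27 to 23 bases before it. The Kitl promoter held none of the 3 motifs.

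No Sertoli cell gene passed the test between mutant and wild-type testes. Over all 8 mice the 28 genes had log2 differences (mutant minus wild type) between 0.0099 for Shbg and 0.91 for Mro, all positive, with a median of 0.15. Of all 13795 genes, 62.7% were positive and the median was 0.065. After quantile normalization or median centring 27 of the 28 were positive, Shbg having turned negative. The test called 0 of the 28 members and 0.333% of all genes without a block. No member was called with the replicate block, where 3.5% of all genes were called, or with the set as a block, where 2.69% were. At an unadjusted p below 0.05, 2 members passed without a block and 4 with either block, against 9.63%, 17.2% and 17.7% of all genes. Mouse by mouse, the median deviation of the 28 genes from their own means over the 8 arrays was 0.065, -0.058, -0.11 and -0.25 in wild-type replicates 1 to 4 and 0.42, 0.27, -0.14 and -0.18 in mutant replicates 1 to 4. Every mutant lay above every wild type in 3 members (Clu, Espn and Mro; 2.53% of all genes) and below in 0 (5.34%). By the list's median, mutant replicates 1 and 2 were the highest mice, and mutant replicates 3 and 4 lay among the wild types.

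The common positive sign rested in part on single mice. Without mutant replicate 1, 17 of the 28 genes were positive with a median of 0.051, beside 59.2% of all genes with a median of 0.045. With the set blocked, 20 were positive with a median of 0.089, beside 57.7% of all genes with a median of 0.035. The blocked median was 0.081, with 21 positive genes, without wild-type replicate 2, beside 0.046 and 60.2% for all genes. Without mutant replicate 4 the unblocked median was 0.24, beside 0.061 for all genes. The spermatid sums were 120059, 148121, 118704 and 82768 in wild-type replicates 1 to 4 and 5043, 31523, 17969 and 29667 in mutants. Mutant replicate 1, with the highest Sertoli median, had the lowest spermatid sum, but mutant replicate 2, next in Sertoli median, had the highest spermatid sum of the mutants, and wild-type replicate 4 was the lowest wild type in both. The part of the spermatid transcripts in the Sertoli values was not tested.

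**Figure D1:**
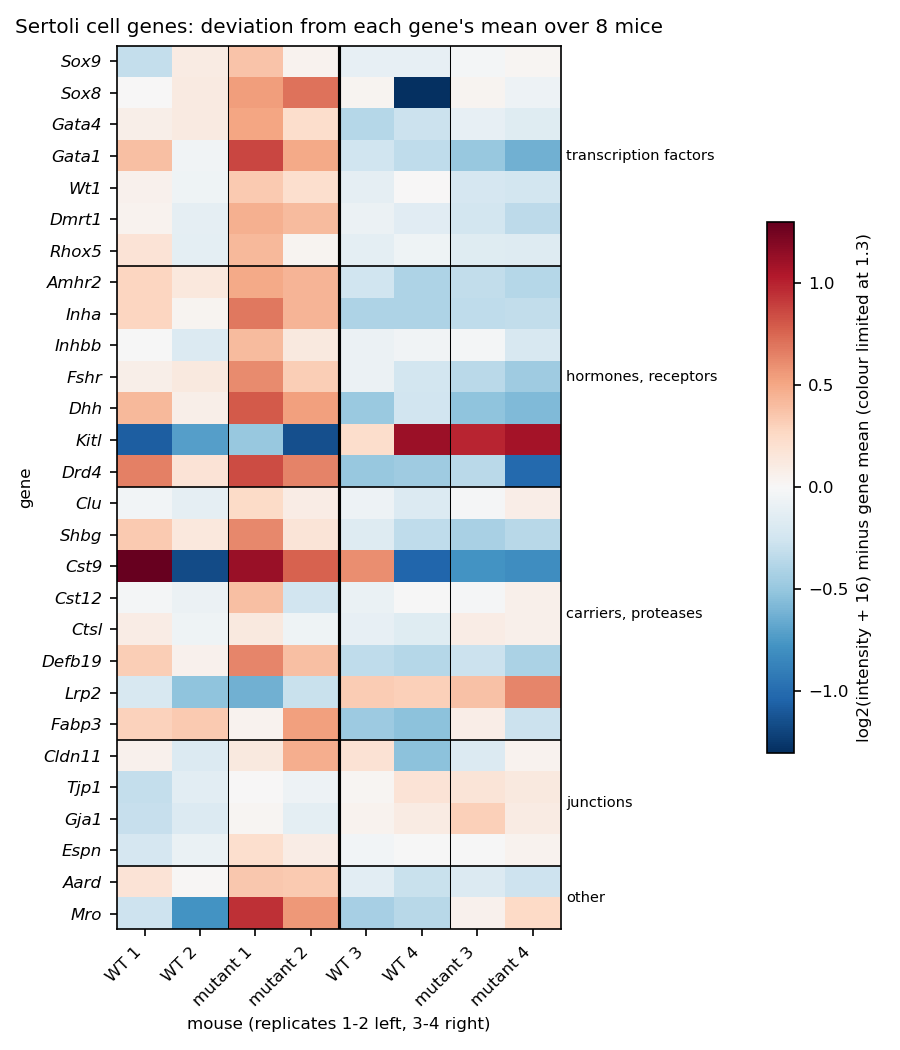
Heat map of the 28 Sertoli cell genes (rows, grouped by role) in the 8 mice (columns, replicates 1 and 2 on the left and 3 and 4 on the right). Colour gives log2(intensity + 16) minus the gene's mean over 8 mice, limited at 1.3. Mutant replicates 1 and 2 are red in most rows, most rows are blue in replicates 3 and 4, and Kitl and Lrp2 run the other way.

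The median shift was larger within set A than within set B. Within set A the median log2 difference of the 28 genes was 0.29, 26 were positive, and the median of all genes was 0.09 with 60.8% positive. Within set B the median was 0.045, 16 of 28 were positive, and the median of all genes was 0.03 with 55.9% positive. The value within set B turned to -0.016 after quantile normalization and to -0.072 after median centring, where the median of all genes there was -0.087. No member passed limma's test within either set (0% of all genes called within set A, and 0.203% within set B), with 2 mice per genotype in each. At an unadjusted p below 0.05, 8 members and 12.9% of all genes passed within set A, and 2 members and 12% within set B. In 14 members the difference was positive in both sets, against 38.4% of all genes. Both mutants lay above both wild types in 18 of the 28 members within set A, against 31.8% of all genes, and in 9 within set B, against 23.1%. In Gata4, Clu, Inha, Espn and Mro this held within each set, but in Gata4 not by its other kept probe set. The opposite order, both mutants below both wild types, occurred within set B in Gata1, Wt1, Rhox5, Fshr, Dhh, Dmrt1 and Shbg. The share of all genes with that order was not counted.

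The change of the shift between the sets was itself tested. In 23 of the 28 genes the log2 difference was larger within set A, and the median change of the shift (set B minus set A) was -0.27, beside -0.05 for all genes. The change was positive in 5 members and in 44.7% of all genes. No gene passed the interaction test of genotype with set, neither a member nor any of the 13795 (0% called by limma). At an unadjusted p below 0.05, 4 members and 5.35% of all genes passed. These 4 were Gata1, Wt1, Dhh and Dmrt1, whose log2 differences went from 0.51 to -0.26, from 0.28 to -0.17, from 0.41 to -0.18 and from 0.47 to -0.18 (limma, adjusted p = 0.737 each). In the other kept probe set of Dhh the genotypes overlapped within set B. The spermatid list had a median log2 difference of -3.66 within set A and -1.94 within set B, and its part in the Sertoli shifts was not tested.

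**Figure D2:**
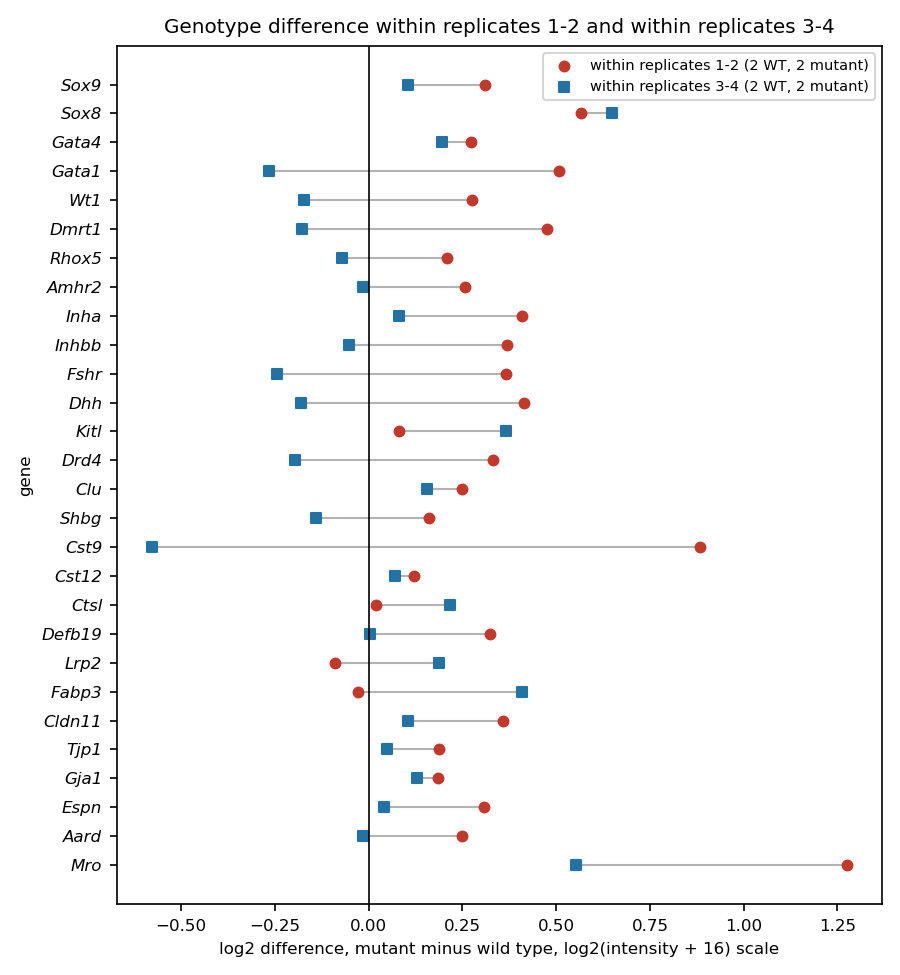
Log2 difference between mutant and wild-type mice (x axis, log2(intensity + 16) scale) for each Sertoli cell gene (y axis), within replicates 1 and 2 (circles) and within replicates 3 and 4 (squares), 2 mice per genotype in each. The circles lie above 0 for 26 of 28 genes and the squares for 16.

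Among the transcription factors, 7 of 8 listed genes were measured. Their log2 differences between genotypes ran from 0.052 to 0.61, and all 7 were positive within set A and 3 within set B. Sox9, which drives the Sertoli fate, gave intensities in replicates 1 to 4 of 303, 409, 351 and 351 in wild type and 497, 391, 373 and 385 in mutants, with mutant replicate 1 above the rest and the genotypes overlapping. Its log2 difference was 0.21 (standard error 0.15, limma, adjusted p = 0.866), while its other kept probe set gave -0.20, so the 2 disagreed in sign. Sox8, its close relative, gave 270.5, 294, 278 and 94.3 in wild type and 400.0, 452, 276 and 257 in mutants. Wild-type replicate 4 stood far below the other 7 mice. The log2 difference of Sox8, 0.61, was 0.25 without that mouse.

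Wt1, a zinc finger factor that maintains Sertoli identity, gave 932, 861, 827 and 901 in wild type and 1134, 1043, 769.9 and 758 in mutants. Mutant replicates 1 and 2 were the highest and mutant replicates 3 and 4 the lowest of the 8 mice. Gata4, a regulator of Amh and inhibin genes, gave 354, 366, 256 and 274 in wild type and 486, 396, 310.2 and 299.9 in mutants, and within each set both mutants lay above both wild types. Its other, dimmer kept probe set gave 62.8, 116, 75.6 and 56.2 in wild type and 123, 93.5, 64.8 and 53.4 in mutants. There the genotypes overlapped within each set. Gata1, which Sertoli cells express in a stage-dependent way, gave 1069.7, 785, 677 and 645 in wild type and 1495, 1149, 573 and 523 in mutants. Its mutants were the 2 highest mice within set A and the 2 lowest within set B. Dmrt1, needed to keep Sertoli cells from turning to a granulosa fate and also made by spermatogonia, gave 1381, 1231, 1268 and 1203 in wild type and 1849, 1786, 1128 and 1053 in mutants, in the same order. Rhox5, an androgen-responsive homeobox gene on the X chromosome, gave 1761, 1422, 1426 and 1501 in wild type and 2096, 1599.9, 1393 and 1390.1 in mutants. Its genotypes overlapped over all mice and within set A, while within set B both mutants lay below both wild types. The log2 difference of Rhox5 over all mice was 0.069.

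Of 10 genes for hormones, growth factors and their receptors, 7 were kept, with a median log2 difference between genotypes of 0.12 over all mice, 0.37 within set A and -0.053 within set B. Inha encodes the alpha subunit of inhibin, which restrains the release of follicle-stimulating hormone. Its intensities in replicates 1 to 4 were 9466, 8015, 5909 and 5886 in wild type and 12582, 10634, 6226 and 6254 in mutants. Set A lay above set B in both genotypes. Within each set both mutants exceeded both wild types, with log2 differences of 0.41 in set A and 0.081 in set B. The difference over all mice, 0.24, had an adjusted p of 0.207 in limma with the replicate block. Inhbb, the beta B subunit, gave 1742, 1544, 1663 and 1695 in wild type and 2343, 1919, 1724 and 1519 in mutants, and mutant replicate 1 was the highest.

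Amhr2, the receptor of anti-Mullerian hormone, which Leydig cells also carry, gave 15759, 14254, 10815 and 9797 in wild type and 18244, 17549, 10353 and 10006 in mutants. Its mutants were the highest within set A and overlapped the wild types within set B. The probe set has a name ending in _x_at, which marks probes that may be shared with other transcripts, and the other 2 kept probe sets of Amhr2 had genotype differences of 0.18 and 0.14 beside its 0.12. Fshr, the receptor of follicle-stimulating hormone, was dim at 211, 219.8, 188 and 166 in wild type and 315, 253, 153 and 141 in mutants, highest in mutant replicate 1 and lowest in mutant replicate 4. Dhh, the hedgehog ligand by which Sertoli cells signal to Leydig and peritubular cells, gave 1246, 974, 659 and 775 in wild type and 1613, 1344, 639.8 and 617 in mutants. Its mutants were the higher mice in set A (log2 difference 0.41) and the lower ones in set B (-0.18). In its other, dimmer kept probe set the genotypes overlapped in set B, at 77.2 and 63.8 in wild type and 66.6 and 89.4 in mutants.

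Kitl, the ligand of the KIT receptor on differentiating spermatogonia, gave 213, 278, 550.4 and 1029.8 in wild type and 328, 203, 945 and 1007 in mutants. It was high in set B of both genotypes. Drd4, a dopamine receptor gene, gave 1377, 987, 612 and 626 in wild type and 1580.2, 1367, 681 and 425 in mutants, with the opposite order. Amh, Gdnf and Il1a were outside the main test for their low values. Amh, the hormone of immature Sertoli cells, gave 65.2, 7.82, 55.8 and 10.5 in wild type and 96.7, 26, 12.4 and 36.8 in mutants. Gdnf, a growth factor for spermatogonial stem cells, gave 36.3, 25.7, 12.2 and 43.2 in wild type and 82.1, 54.1, 22.5 and 49.2 in mutants. Il1a, a cytokine gene, gave 3.7, 4.38, 17 and 19.1 in wild type and 2.99, 7.74, 26.9 and 14.8 in mutants. The table holds no detection calls, so how far these lay above background is unknown. Fitted with no filter on low values, none of the 3 passed between genotypes (limma, adjusted p = 0.995, 0.791 and 0.995), and Il1a passed between the sets, higher in set B (log2 difference 0.77, adjusted p = 0.0187).

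The genes for carriers, proteases and their inhibitors, and uptake numbered 9, of which 8 were kept, with a median genotype difference of 0.14. Clu encodes clusterin, a secreted chaperone that is among the main products of Sertoli cells and is also made in the epididymis. Its intensities were 22267, 20975, 21804 and 20109 in wild type and 27067, 24362, 22529.8 and 24187 in mutants. By this probe set, its brightest, each mutant lay above each wild type. The log2 difference was 0.20 (standard error 0.083, limma, adjusted p = 0.456, 0.105 with the replicate block and 0.0985 with the set as a block), and the 3 other kept probe sets gave 0.13, 0.20 and 0.24. Within set A the difference was 0.25, and within set B 0.16. Not all the other probe sets kept the genotypes apart. In 1, mutant replicate 1 (15693) lay below wild-type replicate 3 (16695). In another, mutant replicates 1 and 2 (13416 and 13848) lay below wild-type replicate 3 (13884), and the remaining one had no overlap.

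The cystatin genes Cst9 and Cst12, which encode relatives of secreted inhibitors of cysteine proteases, varied very differently. Cst9 gave 10271, 1859, 6364 and 2032 in wild type and 9140.4, 7143, 2427 and 2381 in mutants, a 5.53-fold range, the widest of the 28 kept members. High and low mice occurred in both genotypes and both sets. Its standard error, 0.66, exceeded its log2 difference of 0.15. Cst12 gave 12556, 12132, 12025 and 12697 in wild type and 16726, 10779.8, 12622 and 13342 in mutants, a 1.55-fold range. Ctsl, which encodes the lysosomal protease cathepsin L, had the narrowest range of the 28, 1.22-fold, from 10167 to 12369.8. Defb19, a beta-defensin gene of Sertoli cells, gave 12639, 10551, 8073 and 7841 in wild type and 15721, 13302, 8339 and 7632 in mutants, and its log2 difference was 0.32 in set A and 0.0039 in set B.

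Shbg, the gene of the sex hormone carrier, had the smallest genotype difference, with 658, 571, 459.6 and 407 in wild type and 807, 584, 382 and 401 in mutants. Fabp3, a fatty acid binding protein gene, gave 5279, 5425, 3084 and 2958 in wild type and 4429.7, 6208, 4553 and 3545 in mutants. Its log2 difference was -0.029 in set A, where the genotypes overlapped, and 0.41 in set B, where both mutants were higher. Lrp2, the large endocytic receptor megalin, was dim and gave 70.1, 53.3, 109.6 and 107 in wild type and 48.4, 65.6, 113 and 139 in mutants, with differences of -0.091 and 0.19. Fabp3 and Lrp2 were the only members of the 28 negative within set A and positive within set B.

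The 4 junction and cytoskeleton genes had genotype differences between 0.12 and 0.23, and all 4 were positive in both sets. Cldn11, the claudin of the blood-testis barrier, gave 1526, 1290.1, 1672 and 1009 in wild type and 1598, 2031, 1293 and 1513 in mutants, and the genotypes overlapped. Gja1, which encodes the gap junction protein connexin 43, gave 4593, 4989.7, 5846 and 6098 in wild type and 5731, 5172, 7004 and 6094 in mutants. Tjp1, the scaffold of tight junctions, gave 1242, 1402, 1568 and 1737 in wild type and 1544, 1465, 1732 and 1683 in mutants. In both genes the lowest mice were wild types of set A. Espn, which encodes the actin-bundling protein espin of the ectoplasmic specialisations that hold spermatids, gave 190.4, 211, 218 and 223 in wild type and 263, 241, 224 and 232 in mutants. All 4 mutants exceeded all 4 wild types by a small margin at the boundary, and the log2 difference was 0.17 (limma, adjusted p = 0.881).

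Mro, a gene named maestro after its expression in the developing male gonad, had a genotype difference of 0.91 on the log2 scale, the highest of the 28 kept members, but its wild-type mean was below the filter value, so a difference in this direction was favoured by its being kept. Its intensities were 73.1, 46.7, 63.8 and 67.4 in wild type and 191, 142, 95.3 and 113 in mutants, and every mutant lay above every wild type. The wild-type mean was 62.8 ± 11.4 and the mutant mean 135 ± 42.1 (SD, n = 4). The standard error of the log2 difference was 0.23, and the fold on the log2(intensity + 16) scale was 1.88. The difference missed the threshold without a block (limma, adjusted p = 0.14), with the replicate block (0.0689) and with the set as a block (0.066). The log2 difference was 1.28 in set A and 0.55 in set B, and ran from 0.74 to 1.05 as single mice were left out. Mro had 1 probe set, among the dimmest that were kept. Aard, a gene of unclear function enriched in Sertoli cells, gave 10351, 9263, 8344 and 7486 in wild type and 11666, 11622, 8071 and 7577 in mutants. Its mutants exceeded the wild types within set A only.

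**Figure D3:**
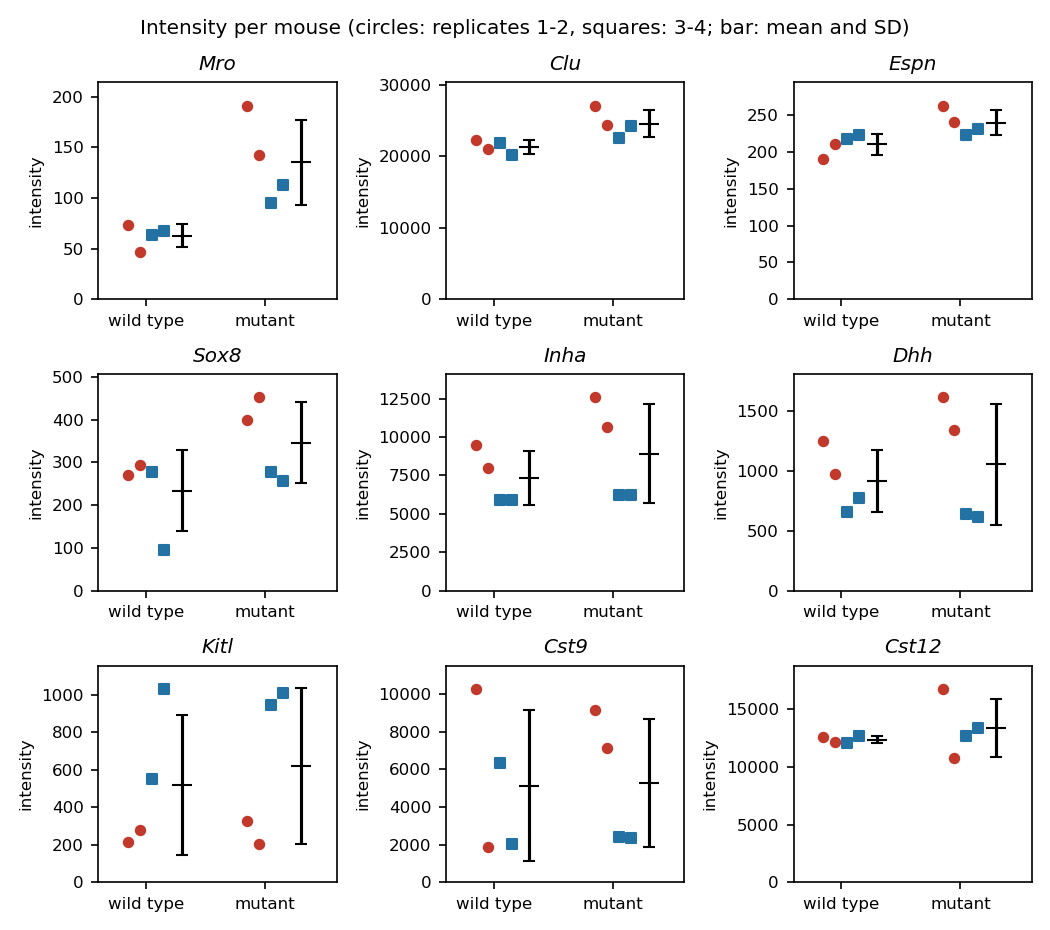
Intensity (y axis, linear, from 0) of 9 Sertoli cell genes in each mouse, by genotype (x axis). Circles are replicates 1 and 2, squares replicates 3 and 4, and bars the mean and SD of 4 mice. Mro, Clu and Espn do not overlap between genotypes, Inha and Dhh are higher in replicates 1 and 2, Kitl is higher in replicates 3 and 4, and Cst9 spreads widely in both genotypes.

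More Sertoli cell genes passed the test between the sets than between the genotypes. Of the 28 members 15 passed, with genotype in the model, 12 lower and 3 higher in set B, where 42.8% of all genes passed (20.3% lower and 22.5% higher). The median log2 difference (set B minus set A) was -0.34 over the 28 genes and 0.015 over all genes, and 24 of the 28 were negative and 4 positive, against 51.2% positive among all genes. Every mouse of set B lay below every mouse of set A in 10 members (18.4% of all genes) and above in 4 (19.3%), Kitl, Lrp2, Gja1 and Tjp1. Scaling changed the balance of calls. As deposited, 2803 of all 13795 genes were called lower and 3097 higher. After quantile normalization 14 members were called lower and 5 higher, beside 3434 and 2743 of all genes. After median centring 18 and 2 members were, beside 4837 and 1954 of all genes. The share of higher genes among all calls went from 52.5% to 44.4% and 28.8%. Median centring moved the median of all genes to -0.23. Relative to the median of all genes the members' median was -0.36 as deposited, -0.31 after quantile normalization and -0.36 after median centring.

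Of the 7 kept genes for hormones, growth factors and receptors, 5 were lower in set B and 1 higher. Inha fell from 10174 ± 1929.6 in set A to 6069 ± 198 in set B (SD, n = 4), by 0.73 on the log2 scale (standard error 0.094, limma, adjusted p = 0.000734). Amhr2 fell by 0.68 on the log2 scale (adjusted p = 0.000381), and its 2 other kept probe sets gave -0.60 and -1.03. Fshr, Dhh and Drd4 had log2 differences of -0.57, -0.91 and -1.16 (adjusted p = 0.0211, 0.00207 and 0.00163). In each of these 5 genes every mouse of set B lay below every mouse of set A. Fshr lost its call without mutant replicate 2, 3 or 4 (adjusted p = 0.0506, 0.0658 and 0.0725). Inhbb, at -0.18 by its brightest probe set, did not pass (adjusted p = 0.277) except after median centring (0.0302). Its other, dimmer kept probe set gave -0.49 and passed in a fit over all kept probe sets (limma, adjusted p = 0.0368). The promoters of Inha, Amhr2, Fshr and Dhh are those printed above.

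Other members lower in set B were spread over the remaining roles. Among transcription factors, Gata1 fell from 1125 ± 292 to 604 ± 69.6 (adjusted p = 0.00608), Gata4 fell by 0.46 and Dmrt1 by 0.40 on the log2 scale (adjusted p = 0.0105 and 0.0442). Dmrt1 lost its call when wild-type replicate 1 or 4 or any single mutant was left out (adjusted p from 0.0545 to 0.139), without the intensity filter (0.0505) and without the intensity trend (0.057). Sox9 and Wt1, at -0.11 and -0.28, did not pass as deposited, and Wt1 did after either other scaling and without wild-type replicate 2 (0.0495). Sox8, at -0.69 (adjusted p = 0.0607), passed without wild-type replicate 3 (0.00599), after either other scaling and with a pseudocount of 64. Rhox5, at -0.25 (0.132), passed without wild-type replicate 2 (0.044) and after median centring. Defb19, Fabp3, Shbg and Aard had log2 differences of -0.70, -0.60, -0.64 and -0.44 (adjusted p = 0.000884, 0.008, 0.00601 and 0.00237). Clu, Cst12 and Ctsl were near 0, at -0.091, -0.024 and -0.052, and their sign turned after quantile normalization. Clu was then called higher (0.0251), but lower after median centring (0.00506), and its 3 other probe sets were positive, so its direction is not settled. Ctsl was called lower after median centring (0.00791). Cst9, at -1.01, did not pass (adjusted p = 0.172) but did without wild-type replicate 2 (0.00598) or 3 (0.0478). Mro, Cldn11 and Espn, at -0.24, -0.24 and -0.0036, did not pass, and Cldn11 did without wild-type replicate 3 (0.0422).

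Kitl, Lrp2 and Gja1 ran the other way. Kitl rose 3.27-fold, from 256 ± 58.8 in set A to 883 ± 225 in set B (SD, n = 4; limma, adjusted p = 0.000705), and its other kept probe set gave a log2 difference of 0.88. Lrp2 rose 1.77-fold on the same scale (adjusted p = 0.00593), with mean intensities of 59.3 ± 10.2 and 117 ± 14.7, but it passed the filter only through set B. Gja1 rose by 0.29 on the log2 scale (adjusted p = 0.0131), but its probe sets disagreed, 3 others being positive and 2 negative, the latter at -0.60 and -0.44, and the mean of its probe sets gave -0.021. Gja1 also lost its call without mutant replicate 3 (0.0541) and after median centring (0.692). Tjp1, at 0.25, missed the threshold (adjusted p = 0.0544). It passed after quantile normalization (0.0434), with a filter at the 60th percentile (0.0465) and with probe sets averaged (0.0443). Over all processing alternatives its log2 difference ran from 0.0091 to 0.25 and its adjusted p in limma up to 0.953. Lrp2, Gja1 and Tjp1 are also known from epididymal epithelium, as are Clu and Rhox5. Of these 5, Lrp2 and Gja1 were called higher in set B, each with the limit given above, and none lower, where 22.5% and 20.3% of all genes were. The 6 measured epididymal markers had a median log2 difference of 6.88 between the sets, and their part in the Sertoli values was not tested.

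**Figure D4:**
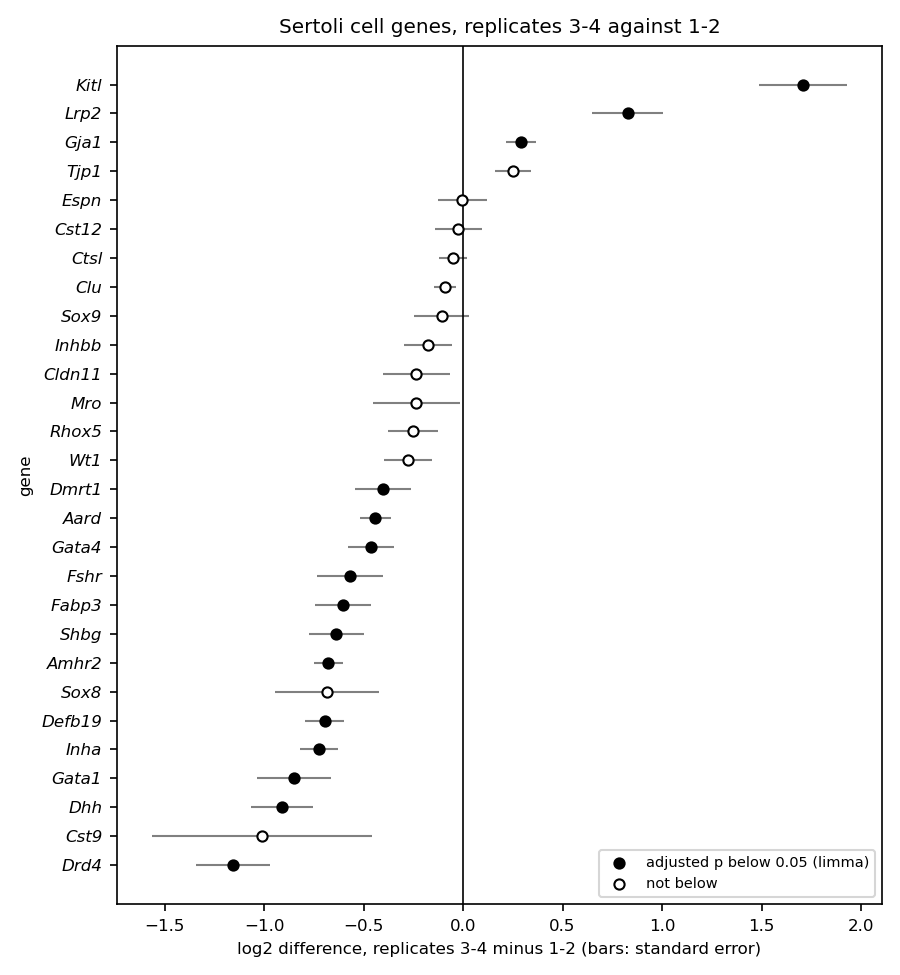
Log2 difference between replicates 3 and 4 and replicates 1 and 2 (x axis, 4 mice each, genotype in the model) for the 28 Sertoli cell genes (y axis), with standard errors as bars and filled points for an adjusted p below 0.05. The 12 filled points left of 0 run from Drd4 to Dmrt1, and Kitl, Lrp2 and Gja1 lie right of it.

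Genes that work with the listed members were examined as 5 further lists, and 1 of their 72 kept genes passed between genotypes, in the fit with the set as a block (1.39%, beside 2.69% of all genes). That gene was Cldn5, a claudin of endothelium and of Sertoli cells, with a wild-type mean of 532 ± 49.2 and a mutant mean of 881 ± 256 (SD, n = 4). It rose by 0.67 on the log2 scale with the set as a block (limma, adjusted p = 0.0361, and 0.0503 with the replicate block and 0.242 without one). Over 20 measured junction genes the median genotype difference was 0.25 and 18 were positive. Over 27 genes of follicle-stimulating hormone, activin and anti-Mullerian hormone signalling it was 0.064, over 11 Sertoli transcription genes 0.18, over 6 receptors and targets of Sertoli ligands 0.30 and over 8 genes of nutrient supply 0.12, beside 0.065 for all genes.

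Between the sets 35 of the 72 genes passed (48.6%, 33.3% higher and 15.3% lower), beside 42.8% of all genes (22.5% and 20.3%). In the junction list 8 of 20 genes rose in set B and 1 fell. In the signalling list 9 of 27 rose and 3 fell. The activin receptor gene Acvr2a, the receptor kinase gene Bmpr1a, through which anti-Mullerian hormone can signal, the cyclic AMP-dependent kinase subunit gene Prkar2b and the transcription factor gene Creb1 rose by 1.20, 1.33, 1.32 and 1.31 on the log2 scale (adjusted p = 0.00293, 0.000593, 0.000162 and 0.00257). In the Sertoli transcription list 3 of 11 rose and 2 fell, and Nr5a1, which encodes SF-1 and is expressed in Leydig and Sertoli cells, went from 1048 ± 191 to 458 ± 122 (adjusted p = 0.0018). In the nutrient list 5 of 8 fell and 1 rose, and the lactate dehydrogenase gene Ldha and the glucose transporter gene Slc2a1 had log2 differences of -0.43 and -0.40. Of the receptors and targets of Sertoli ligands 3 of 6 rose, led by the receptor of GDNF, Gfra1, at 2.05, also a marker of spermatogonia, with the hedgehog receptor genes Ptch1 and Smo at 0.49 and 0.55. Many of these genes are made by several cell types of the testis and the epididymis, so their values are not those of Sertoli cells alone.

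Markers of the other cells were set beside the Sertoli genes. Spermatogonial markers (6 genes) had median deviations of -0.088, -0.12, -0.13 and -0.10 in wild-type replicates 1 to 4 and 0.25, 0.21, 0.17 and 0.059 in mutants. By this median every mutant lay above every wild type, which was not so for the Sertoli median. Gene by gene, the genotypes overlapped in Zbtb16, Gfra1, Stra8, Uchl1 and Sohlh1, and only Kit kept them apart. None of the 6 passed between genotypes, and their median genotype difference was 0.30 within set A and 0.057 within set B, beside 0.29 and 0.045 for the Sertoli genes. The 3 measured Leydig cell genes of 6 listed had a median of -0.11 within set A and 0.21 within set B, and 2 of them were lower in set B. The 5 peritubular genes had -0.42 and 0.55, the 4 endothelial genes 0.11 and -0.019, and the 4 macrophage genes 0.31 and 0.16. The endothelial, macrophage and spermatogonial lists thus also had the larger median in set A. The 5 spermatocyte genes had -0.10 and 0.093, and the epididymal markers -0.074 and 0.19. Whether the Sertoli genes differ from any of these lists was not tested.

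**Figure D5:**
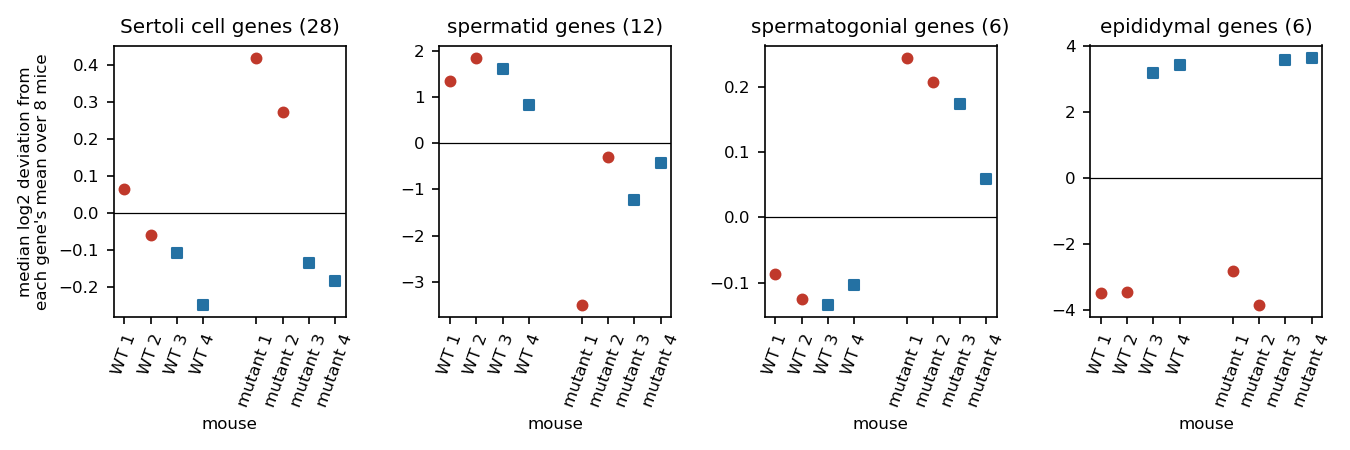
Median log2 deviation from each gene's mean over 8 mice (y axis, scales differ) for Sertoli cell, spermatid, spermatogonial and epididymal genes, with the number of genes in parentheses, in each mouse (x axis; circles replicates 1 and 2, squares 3 and 4). The Sertoli genes are highest in mutant replicates 1 and 2, the spermatid genes lowest in all 4 mutants, and the epididymal genes high in replicates 3 and 4 of both genotypes.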

How the data were processed

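The values are linear intensities, deposited by the authors as 1 number per probe set and array. Per the submitters' processing notes the software was GCOS, with no version or settings stated. Each array of the deposited table has a 2% trimmed mean of 500, and there are no detection calls. Of 45037 probe sets other than controls, 34945 carried 1 gene symbol, 932 several and 9160 none, and old symbols were replaced by way of Entrez identifiers (RefSeq, GRCm38.p6). The log2 scale is log2(intensity + 16), which understates the change of dim genes.

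Two-sided tests came from limma 3.58.1 (R 4.3.3, lmFit, then eBayes with trend), adjusted by Benjamini-Hochberg over all 13795 genes, with a threshold of 0.05. Genotype was fitted without a block, with replicate number or set (replicates 1 and 2 against 3 and 4) as a block, and within each set. Set was fitted with genotype in the model, and so was their interaction. The scripts were tested on simulated data. Same-numbered mice of the 2 genotypes deviated together (r from 0.514 to 0.673 for the 4 numbers). These correlations include the difference between the sets, so they cannot show a pairing beyond the set. The labels name no pairs, and the replicate block is given as an alternative to the set as a block. By correlation, 3 of 8 mice had the same-numbered mouse as the nearest one of the other genotype. P-values measure the spread between mice.

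Per-mouse values are given by rule for members called in any fit, defining markers and members without overlap. Those of the remaining members were added after the data were seen. The members, lists and tests were chosen with earlier results of these data known, the Sertoli shift within each set among them, so none is independent support. Alternatives are in the closing section. Figures were drawn with matplotlib 3.10.9.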

Additional observations from a re-analysis of the deposited data

Results flagged for a closer look

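In 2 of 62 groups of 4 mice (31 genes in 2 genotypes) a single mouse stood apart from the other 3, where chance gives about 1 in 20 groups. Sox9 in mutant replicate 1 read 497, and the other mutants lay between 373 and 391, a gap of 0.852 of the group's range. Sox8 in wild-type replicate 4 read 94.3, and the other wild types lay between 270.5 and 294, a gap of 0.881 of the range.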

How the results depend on the processing

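No Sertoli cell gene passed between genotypes, or by the interaction, under any of the 11 alternatives run for genotype, the 9 run for the interaction, or when single mice were left out of the comparison over all mice. With the replicate block the number of all genes called went from 46 to 483, and with the set as a block to 371. It was 22 and 99 with pseudocounts of 1 and 64, 27 with a filter at the 60th percentile, and 0 to 640 when single mice were left out. In the unblocked fit, dropping wild-type mouse 1, 2 or 3, or mutant mouse 3, left 0 calls, dropping mutant mouse 4 left 23, and dropping mutant mouse 1 gave 191. In the fit blocked by set, dropping wild-type mouse 3 left 23 and dropping mutant mouse 1 gave 640. The replicate block changed no call of a Sertoli gene. The members' median shift was 0.051 to 0.24 when single mice were left out. It was 0.22 to 0.41 within set A and -0.026 to 0.047 within set B. In the fits within a set 1 genotype then has 1 mouse, assumed to vary like the others, so only effect sizes are given for them. The highest median within set A, 0.41, came without mutant replicate 2, where the median of all genes was 0.14. The lowest within set B, -0.026, came without wild-type replicate 4, where the median of all genes was 0.058. With median centring the shift within set B was -0.072 and the difference between the sets -0.58. The cause was not tested. Between the sets 12 to 18 members were called with single mice left out, with a median of -0.44 to -0.29. The 12 came without mutant replicate 3 (2 higher and 10 lower, beside 2462 and 2018 of all genes). The 18 came without wild-type replicate 2 (3 and 15, beside 2997 and 2916) or 3 (3 and 15, beside 3025 and 2604). Uncalled genotype differences that turned sign with single mice left out ran over -0.15 to 0.35 (Gata1), -0.052 to 0.14 (Wt1), -0.025 to 0.26 (Amhr2), -0.061 to 0.14 (Rhox5), -0.13 to 0.22 (Fshr), -0.13 to 0.33 (Dhh), -0.036 to 0.22 (Cst12), -0.49 to 0.63 (Cst9), -0.10 to 0.64 (Kitl), -0.019 to 0.33 (Defb19), -0.20 to 0.41 (Drd4), -0.16 to 0.27 (Lrp2) and -0.20 to 0.15 (Shbg), and Shbg gave -0.015 and -0.032 with quantile normalization and median centring. Differences between the sets that turned sign were Clu, Cst12 and Ctsl with quantile normalization (0.20, 0.19 and 0.13), Sox9, Clu and Gja1 with probe sets averaged (0.0075, 0.065 and -0.021), and Cst12 and Espn with single mice left out (-0.15 to 0.11 and -0.058 to 0.047). The number of arrays and the lack of detection calls limit what dim genes show.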
